A study of Saccharomyces cerevisiae with 16 samples.

Results

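Petite and grande yeast were compared in the rich medium YPD without MCHM (4-methylcyclohexane methanol, the solvent whose effects the study examined). The comparison held 4 of the 16 libraries of the series, 2 of petite and 2 of grande yeast, and all 6717 genes of the count table, of which 5856 had enough counts to be tested. Grande yeast were the laboratory strain S96, a MATa lys5 haploid with an intact mitochondrial genome. Petite yeast were derived from S96 by growth in ethidium bromide, which removes mitochondrial DNA, and how many petite isolates were used is not given in the sources used here. Cultures in mid-log phase were diluted and divided, and the subculture without MCHM was grown for a further 2.5 h beside one with 0.055% (v:v) MCHM. The other groups used below are both strains with 0.055% MCHM for 2.5 h in YPD, and both strains without MCHM in the minimal medium YM, each with 2 libraries. The 2.5 h come from the labels, and the text of the study gives a shorter exposure.

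Petite yeast cannot respire and grow by fermenting glucose. The mitochondrial genome encodes core subunits of cytochrome bc1, cytochrome c oxidase and ATP synthase, and the nucleus encodes the remaining subunits, so that petite yeast keep mitochondria that import proteins but cannot assemble these complexes. Mitochondria also make iron-sulfur clusters, and the transcription factors Aft1 and Aft2 turn on genes of iron uptake when the signal from these clusters is low. Loss of mitochondrial function is further known in yeast for the retrograde response, in which Rtg1 and Rtg3 act on metabolic genes such as CIT2, and for a response through Pdr3 that acts on genes of multidrug resistance.

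The labels were checked first. The grande libraries held 1 and 4 read pairs on mitochondrially encoded genes, spread over AI1, COB and OLI1, and the petite libraries held 0. These counts are too low to check the loss of mitochondrial DNA from the 4 libraries alone. Over all 16 libraries, every petite library held 0 and the grande libraries held 0 to 12. The study reports that the petite yeast did not grow on glycerol and had lost COX2. Markers of MATa haploids summed to between 2584 and 3801 CPM (counts scaled to the normalized library size) per library, against 53.6 to 61.0 CPM for MATalpha markers. Total counts were 2015485 and 3832189 in the grande and 2239640 and 4082636 in the petite libraries. Standard errors below come from a fit to all 16 libraries. They rest on the spread between the 2 libraries within each of the 8 groups, which came from separate cultures.

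Promoter elements bound by known regulators of the drug resistance, iron uptake and hypoxic genes are shown first, because the results return to the genes that hold them. They were read from the R64 genome, the build named in the submitters' processing notes, within 600 bases before each start codon and on both strands. Each line is written 5′ to 3′ on the strand of the gene, with the element in capitals, in either orientation, and no element searched overlapped another in the lines shown. The drug resistance element TCCGCGGA, bound by Pdr1 and Pdr3, is its own reverse complement, and it was found in 38 of 5657 promoters (0.672%). PDR3 held 2 copies, and not all of them are shown.
PDR5, chrXV:619338-619367, + strand: gcccctctcttTCCGCGGAatcgctcatgc
PDR5, chrXV:619516-619545, + strand: agagaaatgtcTCCGCGGAactcttctacg
PDR15, chrIV:1278820-1278849, + strand: cgcatgctcgtTCCGCGGAgagtctcgagc
PDR3, chrII:217235-217264, + strand: ctgcccttgttTCCGCGGAgctgcctcctc
SNQ2, chrIV:465324-465353, + strand: tattttaagttTCCGCGGAtgcctttcgat
CIS1, chrXII:822899-822928, - strand: atccgcctattTCCGCGGAatcaatagggc

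The element TGCACCC, a core of the site bound by Aft1 and Aft2, was found in 157 of 5657 promoters (2.78%). It was found in all 7 promoters of a list of siderophore iron uptake genes, and the genes with the largest fold changes in that list are shown. FIT2 held 4 copies, and not all of them are shown.
FIT1, chrIV:1505065-1505093, - strand: gttctaggaaaGGGTGCAaaaaaatgaat
FIT1, chrIV:1505167-1505195, - strand: taactatgccgTGCACCCtgttccgcacc
FIT2, chrXV:1059254-1059282, + strand: atttaaaacaaTGCACCCtaagttcaaat
FIT2, chrXV:1059389-1059417, + strand: cgaatctaactGGGTGCAgtataattagc
FIT3, chrXV:1061222-1061250, - strand: attctaggaaaGGGTGCAaaaaaatgggg
FIT3, chrXV:1061323-1061351, - strand: agattttttttTGCACCCtgtttgttccg
ARN2, chrVIII:10643-10671, - strand: aatcagaaaatGGGTGCAgttcttagttc

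The element ATTGTTCTC, a form of the site of the repressor Rox1, was found in 77 of 5657 promoters (1.36%). ANB1, the hypoxic isoform of translation factor eIF5A, held 2 copies.
ANB1, chrX:525577-525605, - strand: ttcctattccATTGTTCTCtttggtaaac
ANB1, chrX:525644-525672, - strand: ttttcgccctATTGTTCTCgagcctaaaa

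The libraries differed more between culture series than between strains. Culture numbers 1 and 2 form a lower series, with 1 grande and 1 petite library, and numbers 9 and 10 a higher series with the other two. Within a series, petite and grande libraries were at least 2-fold apart in 337 genes (lower series) and 270 genes (higher series). Between series, the 2 grande libraries were 2-fold apart in 956 genes and the 2 petite libraries in 855. In edgeR's quasi-likelihood test, 424 genes differed between the series at an adjusted p under 0.05 and at least 2-fold, 140 with higher counts in the higher series (2.39%) and 284 with lower counts (4.85%). The lower series stood out for genes of reserve carbohydrates and stress, among them GSY1, a glycogen synthase with 214 and 277 CPM in the lower and 3.94 and 3.56 CPM in the higher series. What set the series apart is not given in the sources used here, and the strain values are therefore given within each series as well.

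**Figure D1:**
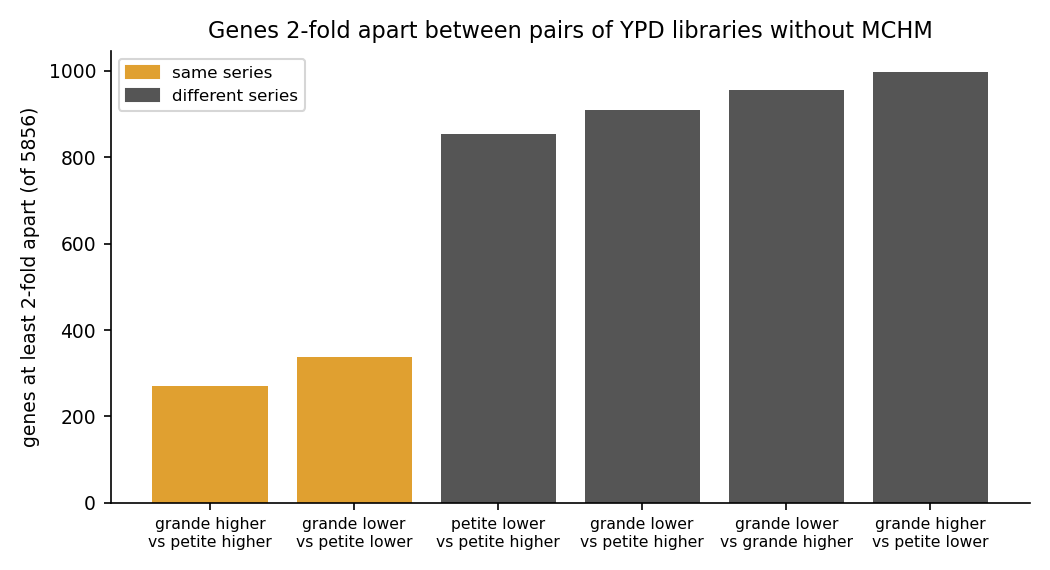
Number of genes at least 2-fold apart (bars, of 5856 genes, log2 of CPM + 0.5) for each of the 6 pairs of YPD libraries without MCHM. Pairs from the same culture series (orange) have 270 and 337 such genes, and pairs from different series (grey) have 855 to 997.

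Against this spread, no gene passed the test between petite and grande yeast (0 higher, 0%, and 0 lower, 0%, by edgeR with Benjamini-Hochberg adjustment). An unadjusted p under 0.05 was reached by 106 genes with higher counts in petite yeast (1.81%) and 46 with lower counts (0.786%), and at least 2-fold as well by 60 (1.02%) and 24 (0.41%). The median standard error of a log2 fold change was 0.330, and no exact permutation test of 2 libraries against 2 can give a p below 0.333. DESeq2 called 7 genes (0.12%), of which DAN1, FIT1, ANB1, PDR5 and RSB1 had higher counts in petite yeast and DPI8 and MEF2 lower counts. With the culture series as a block, edgeR called DAN1 alone (0.0171%, log2 fold change 4.98, adjusted p = 0.0254). A block with a term of its own for the 4 libraries, chosen after seeing the data, called 4 genes (0.0683%). A fit to the 4 libraries alone with the same block, which leaves 1 residual degree of freedom, called 56 of 5595 genes (1%), 28 in each direction. Both petite libraries lay above both grande libraries in 719 genes (12.3%) and below both in 603 genes (10.3%), and the petite to grande ratio was at least 2-fold in the same direction in both series in 40 genes with higher and 26 with lower CPM in petite yeast.

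**Figure D2:**
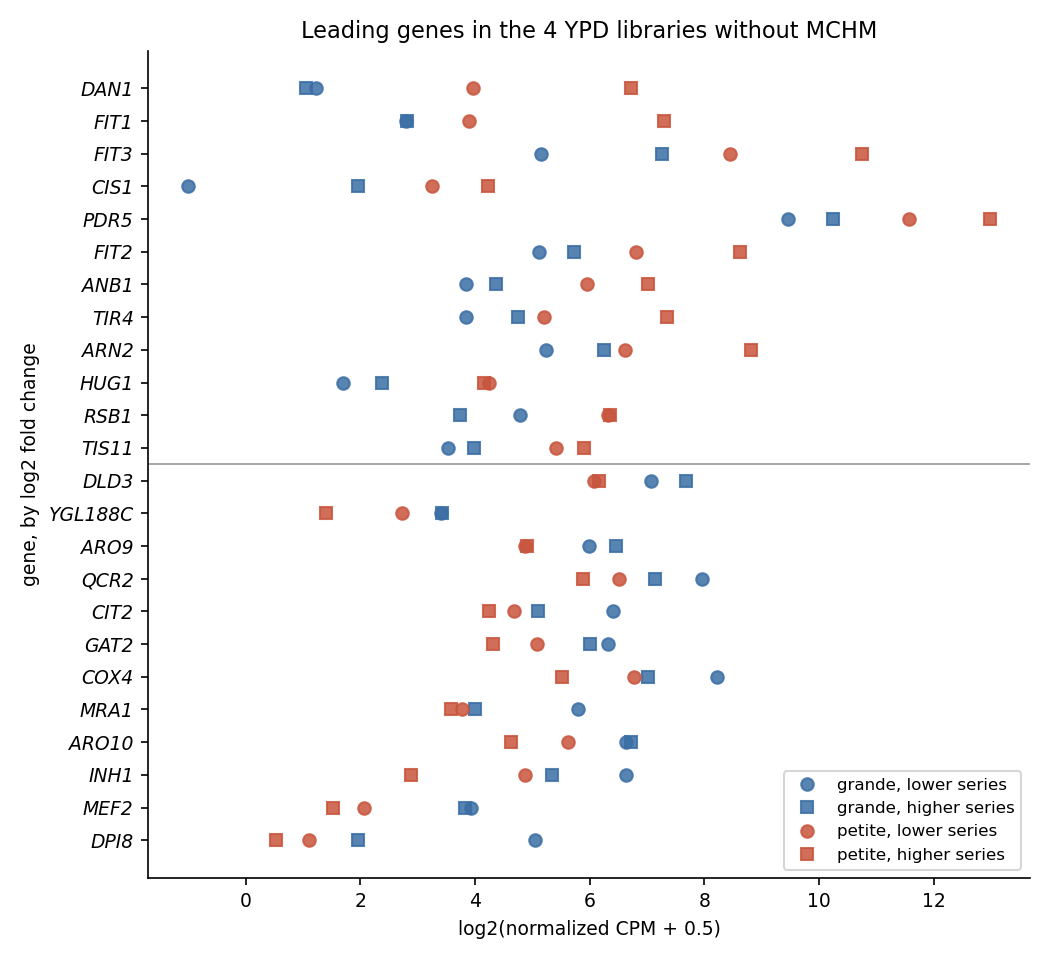
Normalized CPM (log2 of CPM + 0.5) in each of the 4 libraries for the 12 genes with the highest and the 12 with the lowest log2 fold change among genes that averaged at least 20 counts, had an unadjusted p under 0.05 and did not overlap between strains. Grande libraries are blue and petite red, with circles for the lower and squares for the higher series, and the highest value of the upper 12 genes was in the petite library of the higher series in 11.

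Genes of multidrug resistance were among those with the clearest separation. PDR5, the main drug efflux pump of the plasma membrane (chrXV:619840-624375, R64), had 699 and 1210.1 CPM in the grande libraries of the lower and higher series and 3043 and 8042 CPM in the petite libraries. The 2 petite values lay above both grande values, and the ratio was similar in both series, 2.12 and 2.73 on the log2 scale. The log2 fold change was 2.54 (SE 0.454, n = 2 and 2), with an adjusted p of 0.345 in edgeR, the lowest of the comparison and shared with YOL163W, and 1.8e-05 in DESeq2. Without the petite library of the higher series the log2 fold change was 1.67. Without the petite library of the lower series, edgeR called PDR5 at a log2 fold change of 3.07, together with DAN1 (2 genes, 0.0337%).

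RSB1, a transporter of sphingoid long-chain bases, had 27.2 and 12.9 CPM in grande and 78.9 and 81.5 CPM in petite yeast. The petite values were nearly equal in the 2 series, and the log2 fold change was 2.02 (SE 0.415, edgeR adjusted p = 0.552). PDR15, a pump closely related to Pdr5, had 72.3 and 49.9 CPM in grande and 131 and 146 CPM in petite yeast. PDR3, which encodes the transcription factor of this response and holds the element in its own promoter, had 68.2 and 77.7 CPM in grande and 92.4 and 210.4 CPM in petite yeast. For both genes the groups did not overlap, with log2 fold changes of 1.19 (SE 0.335) and 1.06 (SE 0.353). SNQ2, another efflux pump, had 242 and 293 CPM in grande and 428 and 565 CPM in petite yeast, a log2 fold change of 0.89. PDR1, the paralogue of PDR3, had 45.6 and 62.0 CPM in grande and 57.9 and 59.9 CPM in petite yeast, and its groups overlapped.

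Of the 19 drug resistance genes on the list, 9 had both petite libraries above both grande libraries, against 12.3% of all genes, and 1 below, against 10.3%. An unadjusted p under 0.05 was reached by 6 with higher counts (1.81% of all genes) and 0 with lower counts (0.786%). The median log2 fold change was 0.33, against 0.00 over all genes tested. The list was not uniform. TPO4, a polyamine exporter, had 199 and 26.3 CPM in grande and 96.9 and 12.8 CPM in petite yeast. Its groups overlapped, and the log2 ratio was -1.03 in the lower and -1.01 in the higher series. In the fit to all 16 libraries TPO4 did not pass (log2 fold change -1.05, SE 0.998). Its log2 fold change ran from -3.12 to 1.04 on leaving out 1 library. Only the fit to the 4 libraries with the series as a block called it lower (edgeR adjusted p = 0.00546). That fit leaves 1 residual degree of freedom. The element TCCGCGGA shown above was present in 6 of the 19 promoters (31.6%). Among the 32 genes that held it but were not on the list, both petite libraries lay above both grande libraries in 9 (28.1%). One of these was CIS1, which had 0 and 3.41 CPM in grande and 9.04 and 18.3 CPM in petite yeast.

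Iron uptake through siderophores had the largest median fold change of the lists. FIT1, FIT2 and FIT3 encode mannoproteins that hold siderophore-bound iron in the cell wall. FIT3 had 35.0 and 153 CPM in grande and 347 and 1715 CPM in petite yeast. The petite values were higher than both grande values, and the ratio within the lower series (3.29, log2) was close to that within the higher series (3.48). The log2 fold change was 3.45 (SE 0.980, edgeR adjusted p = 0.923), and it was 1.88 without the petite library of the higher series. FIT2, the neighbour of FIT3 on chromosome XV (chrXV:1059531-1059992 and chrXV:1060441-1061055), had 34.1 and 52.5 CPM in grande and 112 and 392 CPM in petite yeast. Its log2 fold change was 2.53 (SE 0.717), and 1.36 without the same library.

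FIT1 had 6.45 and 6.56 CPM in grande and 14.4 and 156 CPM in petite yeast. Its groups did not overlap, but the petite library of the higher series carried most of the log2 fold change of 3.72 (SE 0.993), which was 1.14 without that library. ARN2, a transporter of siderophore-bound iron, had 37.3 and 75.4 CPM in grande and 97.8 and 449 CPM in petite yeast. ARN1, a related transporter, had 65.4 and 102 CPM in grande and 116 and 323 CPM in petite yeast, and the groups of both genes did not overlap. SIT1, the ferrioxamine transporter, had 45.1 and 157.5 CPM in grande and 157.7 and 344 CPM in petite yeast, so that the lower petite library only just exceeded the higher grande library. ENB1, the enterobactin transporter, had 99.0 and 138 CPM in grande and 135 and 246 CPM in petite yeast, and its groups overlapped.

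All 7 siderophore genes had a higher value in petite yeast within both series, against 27% of all genes. In 6 of the 7, both petite libraries lay above both grande libraries (12.3% of all genes), 5 reached an unadjusted p under 0.05 with higher counts (1.81% of all genes), and the median log2 fold change was 2.27. These genes also moved with the series: in all 7 the lowest value was in the grande library of the lower series and the highest in the petite library of the higher series, and 4 of the 7 had higher counts in the higher series by edgeR's test (2.39% of all genes). Without the petite library of the higher series the median was 0.79. Outside the list, both petite libraries lay above both grande libraries in 26 of the other 150 genes that held the element TGCACCC (17.3%).

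The reductive route of iron uptake was shifted less. FET3, the copper oxidase of high-affinity iron uptake, had 497 and 853 CPM in grande and 817 and 952 CPM in petite yeast. FTR1, its permease partner, had 479 and 682 CPM in grande and 491 and 728 CPM in petite yeast, and the groups of both genes overlapped. TIS11, which promotes decay of mRNAs for iron-using proteins, had 11.1 and 15.2 CPM in grande and 41.9 and 59.4 CPM in petite yeast. Its log2 fold change was 1.93 (SE 0.489), nearly the same in both series (1.88 and 1.93). FTH1, a vacuolar iron transporter, had 135 and 124 CPM in grande and 194 and 222 CPM in petite yeast, with a small standard error (log2 fold change 0.68, SE 0.179). CCC2, which delivers copper to Fet3, had 22.1 and 21.5 CPM in grande and 29.6 and 59.1 CPM in petite yeast. LSO1 had counts of 0 and 0 in grande and 1 and 47 in petite yeast, at least 14.4-fold higher against a floor of 3 counts over both grande libraries, although it rested on 1 library. Of the 24 genes of reductive uptake and iron use, 11 had both petite libraries above both grande libraries (12.3% of all genes) and 0 below (10.3% of all genes), and the median log2 fold change was 0.38, which LSO1 at its bound left at 0.38.

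**Figure D3:**
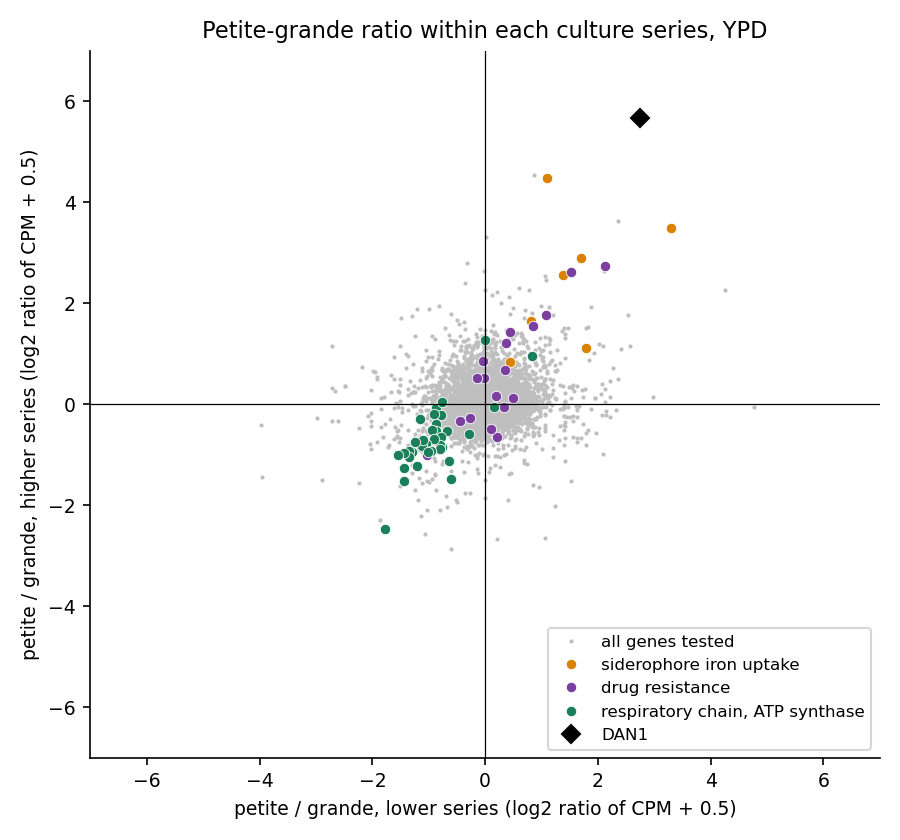
Petite to grande ratio of each of the 5856 genes within the lower series (x axis) and within the higher series (y axis), both as log2 of CPM + 0.5. Siderophore genes (orange) and DAN1 (diamond) lie above 0 on both axes, 32 of the 36 respiratory chain and ATP synthase genes (green) lie below 0 on both, and across all genes the ratios of the series had a Pearson correlation of 0.211, a description across genes that are not independent replicates.

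DAN1, a cell wall mannoprotein that aerobic yeast repress, had the largest fold change of the genes that averaged at least 20 counts. It had 1.84 and 1.58 CPM in grande and 15.2 and 105 CPM in petite yeast, from 4 and 6 counts in grande and 37 and 442 counts in petite yeast. Both petite values stood well above the grande values, and the 2 petite values were themselves far apart. The log2 fold change was 5.14 (SE 0.965), with an adjusted p of 0.351 in edgeR and 9.76e-05 in DESeq2, and it was 3.15 without the petite library of the higher series. It lies on chromosome X (chrX:708811-709707) between YJR149W and DAN4. YJR149W had 6.45 and 6.83 CPM in grande and 14.8 and 27.3 CPM in petite yeast, and DAN4, a mannoprotein of the same family, had 14.3 and 16.8 CPM in grande and 22.6 and 22.3 CPM in petite yeast.

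TIR4, another mannoprotein induced without oxygen, had 13.8 and 26.3 CPM in grande and 36.6 and 162 CPM in petite yeast. Its groups did not overlap, and the log2 fold change of 2.29 (SE 0.628) was 0.84 without the petite library of the higher series. TIR1 had 75.1 and 265 CPM in grande and 123 and 445 CPM in petite yeast, TIR2 had 13.4 and 22.1 against 17.3 and 36.8 CPM, and TIR3 had 49.3 and 87.4 against 69.8 and 163 CPM. In these 3 genes the groups overlapped and the higher series had the larger values in both strains. These genes stood on a list of 9 tested genes that also held the cell wall mannoproteins CWP1 and CWP2 and PAU23, also named DAN2. In 3 of the 9 both petite libraries lay above both grande libraries (12.3% of all genes) and in 1 below (10.3%), with a median log2 fold change of 0.61.

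ANB1 had 13.8 and 20.2 CPM in grande and 61.6 and 128 CPM in petite yeast. The groups did not overlap and the log2 fold change was 2.47 (SE 0.520, edgeR adjusted p = 0.560), with 2.12 in the lower and 2.64 in the higher series. Of the 14 hypoxic genes on the list, ANB1 included, 2 had both petite libraries above both grande libraries (12.3% of all genes) and 0 below (10.3%), and the median log2 fold change was 0.28. The Rox1 element shown above was present in 3 of the 14 promoters (21.4%). Among the 74 genes that held it but were not on the list, both petite libraries lay above both grande libraries in 8 (10.8%, against 12.3% of all genes).

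Nuclear genes of the respiratory chain and ATP synthase had lower values in petite yeast as a list. COX4, a subunit of cytochrome c oxidase, had 298 and 129 CPM in grande and 109 and 45.1 CPM in petite yeast. Within each series the petite library had the lower value by a similar ratio, -1.45 and -1.51 on the log2 scale, while the series itself moved the gene almost as far (log2 -1.23, higher less lower series, edgeR adjusted p = 0.0143). The log2 fold change between strains was -1.48 (SE 0.574), and -0.76 without the grande library of the lower series. QCR2, a core subunit of cytochrome bc1, had 249 and 141 CPM in grande and 91.2 and 58.4 CPM in petite yeast. COR1, the other core subunit, had 318 and 203 CPM in grande and 137 and 86.9 CPM in petite yeast. In both genes the groups did not overlap, with log2 fold changes of -1.38 (SE 0.389) and -1.22 (SE 0.381).

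INH1, the inhibitor that stops ATP synthase from hydrolysing ATP, had 99.0 and 40.2 CPM in grande and 28.8 and 6.89 CPM in petite yeast, the lowest log2 fold change of the list at -2.01 (SE 0.707). On leaving out 1 library it ran from -3.32 (petite, lower series) to -1.23 (grande, lower series). CYT1, cytochrome c1, had 147 and 63.0 CPM in grande and 57.5 and 32.8 CPM in petite yeast, while RIP1, the Rieske iron-sulfur protein of the same complex, had 269 and 96.4 CPM against 106 and 46.8 CPM and overlapped. ATP19, a small subunit of ATP synthase, had 113 and 50.7 CPM in grande and 47.6 and 29.9 CPM in petite yeast. COX5A, the aerobic form of a cytochrome c oxidase subunit, had 197 and 106 CPM in grande and 96.9 and 54.4 CPM in petite yeast, and the groups of ATP19 and COX5A did not overlap.

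Of the 36 genes on this list, 33 had a log2 fold change below 0 (49.5% of all genes did) and 32 had a lower value in petite yeast within both series (27.6% of all genes). Both petite libraries lay below both grande libraries in 17 (10.3% of all genes) and above in 1 (12.3%), an unadjusted p under 0.05 was reached by 14 with lower counts (0.786% of all genes) and 0 with higher counts (1.81%), and the median log2 fold change was -0.83. The series moved the same genes: 33 of the 36 had their highest value in the grande library of the lower series and 32 their lowest in the petite library of the higher series, and 13 had lower counts in the higher series by edgeR's test (4.85% of all genes). Without the grande library of the lower series the median was -0.34, and without the petite library of the higher series -0.55. The fit to the 4 libraries with the series as a block called 11 of the 36 genes, all with lower counts in petite yeast, where it called 1% of all genes in either direction. The CCAAT box of the Hap complex stood in 34 of the 36 promoters (94.4%) and in 70.7% of all promoters, and COX4 had 0 matches. Among the 3963 genes that held the box but were not on the list, both petite libraries lay below both grande libraries in 415 (10.5%, against 10.3% of all genes).

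**Figure D4:**
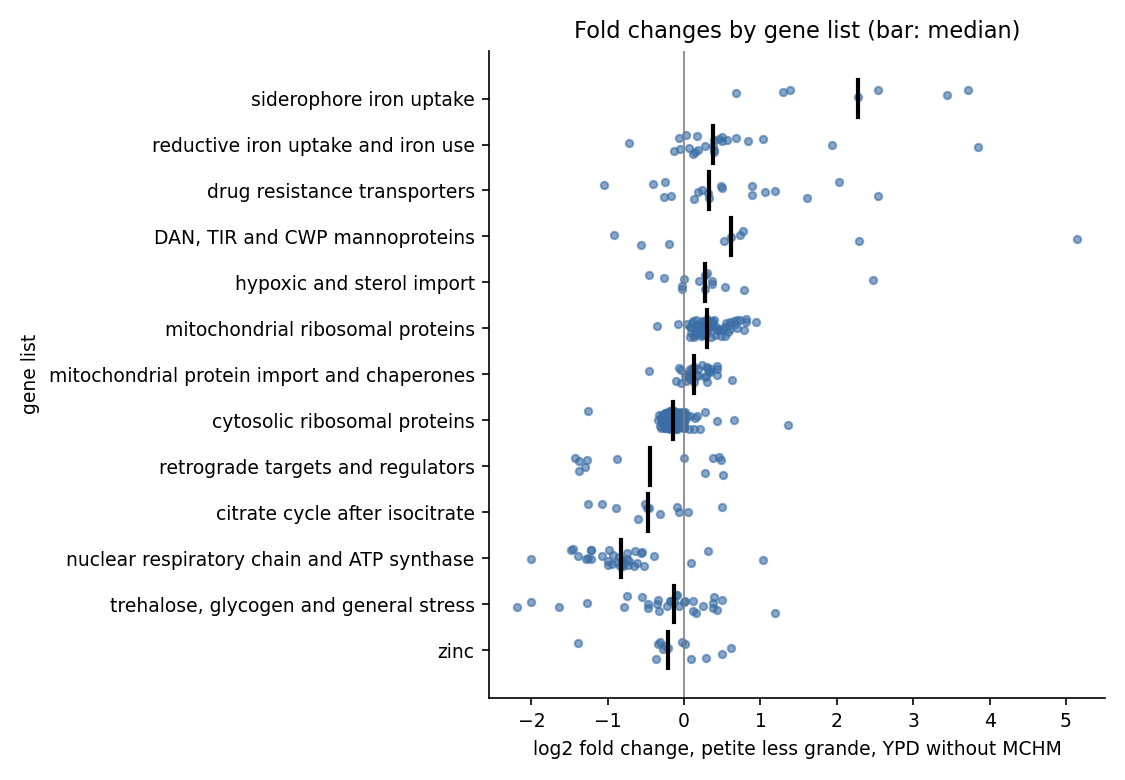
Log2 fold change of petite less grande yeast in YPD without MCHM for each gene (points) of 13 gene lists, with the median as a black bar. LSO1, at 0 counts in grande yeast, is drawn at its lower bound of 3.85, and the medians run from 2.27 for siderophore iron uptake to -0.83 for the respiratory chain and ATP synthase.

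The retrograde targets CIT2 and DLD3 had lower values in petite yeast. CIT2, the peroxisomal citrate synthase by which this response is usually followed, had 84.3 and 33.9 CPM in grande and 25.1 and 18.5 CPM in petite yeast. Both petite values were below both grande values, and the log2 fold change was -1.43 (SE 0.577, edgeR adjusted p = 1). Without the grande library of the lower series it was -0.64, and without that of the higher series -1.96. DLD3, a cytosolic D-lactate dehydrogenase, had 135 and 205 CPM in grande and 66.9 and 70.8 CPM in petite yeast. Its groups did not overlap either, and its log2 fold change was -1.30 (SE 0.343). The enzymes of the first steps of the citrate cycle were lower in petite yeast within each series and overlapped across series. CIT1, mitochondrial citrate synthase, had 284 and 74.0 CPM in grande and 112 and 36.8 CPM in petite yeast. ACO1, aconitase, had 723 and 301 CPM in grande and 346 and 50.1 CPM in petite yeast, and IDH2, a subunit of isocitrate dehydrogenase, had 287 and 104 against 129 and 22.1 CPM. The log2 ratios in the lower and higher series were -1.34 and -0.998 for CIT1, -1.06 and -2.58 for ACO1, and -1.14 and -2.21 for IDH2. The fit to the 4 libraries with the series as a block called these 3 genes, CIT2 and DLD3 lower. They were 5 of the 12 retrograde genes, where that fit called 1% of all genes in either direction. Of the 12 genes of the retrograde list, 2 had both petite libraries above (12.3% of all genes) and 2 below both grande libraries (10.3%), and the median log2 fold change was -0.44, which was 0.01 without the grande library of the lower series. The median of 12 genes for later steps of the citrate cycle was -0.47, and 0.04 without the same library.

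Genes for mitochondrial ribosomes and protein import were shifted slightly the other way. Of 70 mitochondrial ribosomal protein genes, 68 had a log2 fold change above 0 (50.4% of all genes did), 27 had both petite libraries above both grande libraries (12.3% of all genes) and 0 below (10.3%), and the median was 0.30. Between series the median was -0.29 (higher less lower), and 0 of the 70 passed edgeR's test. Of 34 genes of import and mitochondrial chaperones, 29 had a log2 fold change above 0, with a median of 0.13. Of 136 cytosolic ribosomal protein genes, 122 had a log2 fold change below 0 (49.5% of all genes did). Their median was -0.15, and -0.04 without the petite library of the higher series. Ribosomal proteins took 18.7% and 16.1% of the counts in petite and 18.9% and 19.0% in grande libraries.

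Some of the lowest fold changes belonged to single genes outside these lists. DPI8 (YJL133C-A), next to the mitochondrial iron carrier gene MRS3, had 32.7 and 3.41 CPM in grande and 1.64 and 0.950 CPM in petite yeast. Its log2 fold change of -3.78 (SE 0.979) rested mainly on the grande library of the lower series and was -1.45 without it. DPI8 also passed edgeR's test with lower counts in petite yeast in YM (log2 fold change -3.13, adjusted p = 0.0161). In YPD with MCHM it passed as well (log2 fold change -3.84, edgeR adjusted p = 0.0327). MEF2, a mitochondrial translation factor, had 14.7 and 13.7 CPM in grande and 3.70 and 2.38 CPM in petite yeast. Its values were close within each strain, and the log2 fold change was -2.25 (SE 0.496, edgeR adjusted p = 0.568). BIO2, the iron-sulfur enzyme biotin synthase, had 51.1 and 71.7 CPM in grande and 27.5 and 27.3 CPM in petite yeast. Its log2 fold change was -1.17 (SE 0.307). ARO9 and ARO10, which break down aromatic amino acids, had 62.6 and 88.0 CPM and 99.0 and 105 CPM in grande yeast. The petite values were 28.8 and 29.5 CPM for ARO9 and 48.5 and 24.2 CPM for ARO10, and neither gene overlapped between strains.

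On the side of higher values, HUG1, an inhibitor of ribonucleotide reductase induced by DNA damage, had 2.76 and 4.73 CPM in grande and 18.5 and 17.3 CPM in petite yeast. Its log2 fold change was 2.20 (SE 0.706). ATP23, a protease and assembly factor of mitochondrial ATP synthase, had 14.7 and 11.6 CPM in grande and 32.9 and 27.1 CPM in petite yeast, a log2 fold change of 1.19 (SE 0.319). For 13 zinc genes the median log2 fold change was -0.21, with both petite libraries above both grande libraries in 2 (12.3% of all genes) and below in 2 (10.3%), and 7 were lower in both series (27.6% of all genes). ZRT1, the high-affinity zinc transporter, had 95.8 and 444 CPM in grande and 75.2 and 131 CPM in petite yeast, and its groups overlapped. In the fit to all 16 libraries ZRT1 did not pass, and its log2 fold change ran from -2.10 to 0.11 on leaving out 1 library. The fit to the 4 libraries with the series as a block called it lower (log2 fold change -1.13, edgeR adjusted p = 0.0304). That fit leaves 1 residual degree of freedom. In the next 3 lists the shares of all genes were 27.6% lower in both series and 10.3% with both petite libraries below both grande libraries. Of 34 genes of ergosterol and fatty acid synthesis, 22 were lower in both series and 9 had both petite libraries below, with a median of -0.17. Of 20 heat shock chaperones, 12 were lower in both series and 5 had both petite libraries below, with a median of -0.29. Of 28 genes of purine and pyrimidine synthesis, 17 were lower in both series and 4 had both petite libraries below, with a median of -0.13. For trehalose, glycogen and general stress the median was -0.14 between strains and -1.84 between series.

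The same strains in other conditions showed which of these values recurred. In YM, 624 genes passed edgeR's test between petite and grande yeast (10.7%), and in YPD with MCHM 89 genes passed (1.52%). The strain difference in YM less that in YPD passed in 31 genes (0.529%), 21 above 0 (0.359%) and 10 below (0.171%), and in 0 of the 24 genes with the highest and lowest fold changes in YPD. The YPD libraries with MCHM came from the same cultures as those without it, so they are not a separate replicate of the strain difference. FIT3 had 34.5 and 43.5 CPM in grande and 153 and 573 CPM in petite yeast in YM, a log2 fold change of 3.22 (edgeR adjusted p = 0.0472). FIT2 had 30.3 and 21.1 CPM in grande and 94.6 and 220 CPM in petite yeast in YM, a log2 fold change of 2.62 (edgeR adjusted p = 0.0334). Both genes thus passed in YM with fold changes close to those in YPD. FIT1 did not: it had 15.1 and 21.4 CPM in grande and 10.3 and 32.1 CPM in petite yeast in YM (log2 fold change 0.21). Of the 7 siderophore genes, 3 passed in YM with higher counts, against 326 of all 5856 genes. In YPD with MCHM, FIT3 had 71.1 and 96.5 CPM in grande and 1294 and 3650 CPM in petite yeast (log2 fold change 4.88, edgeR adjusted p = 0.0405). The 36 genes of the respiratory chain and ATP synthase had a median log2 fold change of -0.40 in YM, where 1 passed in each direction. With MCHM in YPD their median was -0.35 and 0 passed.

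The anaerobic genes had another pattern. DAN1 had 0.776 and 1.32 CPM in grande and 1.03 and 2.14 CPM in petite yeast in YM, and 0.365 and 0 CPM against 22.1 and 50.1 CPM in YPD with MCHM, where it passed the test (log2 fold change 7.54, edgeR adjusted p = 0.0170). Grande values this close to 0 leave the size of that fold change poorly fixed. ANB1 had 10.9 and 7.91 CPM in grande and 3.60 and 12.1 CPM in petite yeast in YM, and 9.12 and 11.3 CPM against 66.9 and 59.3 CPM in YPD with MCHM (log2 fold change 2.62, edgeR adjusted p = 0.0327). The difference between the media was itself -4.57 for DAN1 and -2.71 for ANB1 (log2, YM less YPD), and neither passed the test of that difference (edgeR adjusted p = 0.224 and 0.134).

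PDR5 in YM had 867 and 895 CPM in grande and 627 and 1060.3 CPM in petite yeast, so that the groups overlapped there. With MCHM in YPD it had 10656 and 10889 CPM in grande and 14792 and 12312 CPM in petite yeast. The level in petite yeast without MCHM, 3043 and 8042 CPM, thus lay between that of grande yeast without and with MCHM. RSB1 with MCHM had 331 and 455 CPM in grande and 251 and 304 CPM in petite yeast. The strain difference with MCHM less that without it was -2.21 for PDR5 (SE 0.614, unadjusted p = 0.00367) and -2.52 for RSB1 on the log2 scale. In edgeR 0 genes passed for this difference (0%), 255 reached an unadjusted p under 0.05 (4.35%), and DESeq2 called 46 (0.786%), with PDR5 (adjusted p = 0.0133) and RSB1 (adjusted p = 0.00169) among them. Of these 46 genes, 39 encoded cytosolic ribosomal proteins, all with a difference below 0. These tests treated the libraries as separate, although each culture was divided between the treatments. PDR5 and RSB1 were named for their strain difference without MCHM, which is subtracted here.

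CIT2, DLD3 and BIO2 had lower values in petite yeast in all 3 conditions. CIT2 had 537 and 168 CPM in grande and 23.1 and 25.7 CPM in petite yeast in YM, a log2 fold change of -3.85 (edgeR adjusted p = 0.00395). In YPD with MCHM it had 231 and 111 CPM in grande and 25.6 and 22.0 CPM in petite yeast, a log2 fold change of -2.85 (edgeR adjusted p = 0.0338). The petite values of CIT2 thus stayed between 18.5 and 25.7 CPM in the 3 conditions, while the grande values ranged from 33.9 to 537 CPM. DLD3 and BIO2 also passed edgeR's test in YM (log2 fold changes -1.96 and -1.79) and in YPD with MCHM (-2.34 and -1.51). Of the 12 genes with the highest fold change in YPD, 7 had the same sign in YM and 4 passed there in the same direction. Of the 12 lowest, 9 had the same sign, 4 passed in the same direction, and ARO9 passed in the opposite direction (log2 fold change 2.89, edgeR adjusted p = 0.0133). Among all 5856 genes tested, 326 passed in YM with higher and 298 with lower counts in petite yeast. The share of all genes with the same sign in both media was not counted.

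**Figure D5:**
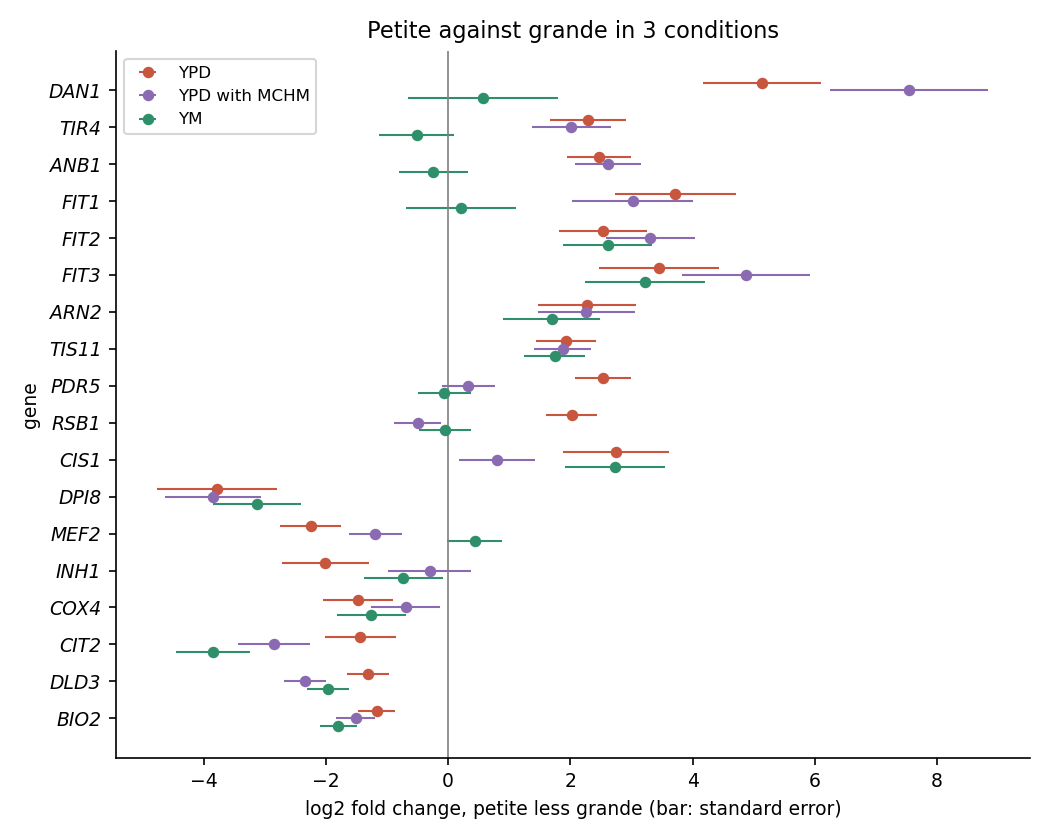
Log2 fold change of petite less grande yeast (points, with standard errors as bars) for 18 genes in YPD, YPD with MCHM and YM, 2 libraries of each strain in each condition. FIT1, FIT2, FIT3, ARN2, TIS11, CIS1, DPI8, INH1, COX4, CIT2, DLD3 and BIO2 have the same sign in all 3, as does DAN1. In YM, DAN1, FIT1, ANB1 and PDR5 lie near 0 with 0.57, 0.21, -0.24 and -0.06. The DAN1 point in YPD with MCHM rests on grande values of 0.365 and 0 CPM.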

How the data were processed

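RNA was measured in 16 libraries, of which the 4 of petite and grande yeast in YPD without MCHM are described here. The authors made unstranded paired-end libraries (Illumina TruSeq, MiSeq), and the submitters' processing notes name CASAVA 1.7, TopHat2 2.0.12, DESeq2 1.8.1 and the builds R64 and sacCer3. The deposited counts per gene were made with Rsubread and are not normalized. A deposited table of the authors' own fold changes and p-values was not used. Libraries were assigned to groups by column name, and the culture series was taken from the culture number in that name.

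Counts of 5856 genes (edgeR filterByExpr, minimum count 10 and minimum total 15) were scaled with TMM factors and fitted with edgeR 4.0.16 in R 4.3.3, using 8 group means over all 16 libraries, and p-values were adjusted over all genes tested by the Benjamini-Hochberg method. A gene passed at an adjusted p under 0.05 and at least 2-fold. DESeq2 1.42.0, other scalings, no filter, leave-one-out fits and the culture series as a block were alternatives. CPM values are normalized by TMM, with 0.5 added on the log2 scale, and standard errors come from the F statistic. The edgeR fit to all 16 libraries, with and without the block, and the DESeq2 fit were tested on simulated data. Counting did not use strand.

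Named genes were the 12 highest and 12 lowest fold changes (mean of at least 20 counts, unadjusted p under 0.05, groups not overlapping), genes called by any fit, up to 4 members of each list with its key members, and mitochondrially encoded genes. SNQ2, PDR1, FTH1, LSO1, DAN4, TIR2, COX5A and GSY1 were added after their values were seen. The comparison and the 33 gene lists were chosen with earlier results of these data known. Symbols for 6025 identifiers came from the R64 RefSeq annotation.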

Additional observations from a re-analysis of the deposited data

Results flagged for a closer look

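The petite-grande difference itself differed between media: edgeR's test of that difference (YM less YPD, without MCHM) was passed by 31 genes (0.529%), 21 with a larger and 10 with a smaller petite to grande ratio in YM. A test of the difference between media picked out these genes, and 6 of the 31 were among 27 genes of nitrogen source use. PHO89, a sodium-phosphate transporter, had 23.0 and 103 CPM in grande and 124 and 222 CPM in petite yeast in YPD, and its difference was 5.46 on the log2 scale (edgeR adjusted p = 0.0468). BAT2, the cytosolic branched-chain aminotransferase, had 343 and 214 CPM in grande and 547 and 499 CPM in petite yeast in YPD, and its difference was 2.93 (edgeR adjusted p = 0.0468).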

How the results depend on the processing

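With 2 libraries per strain from unlike culture series, small differences could not be resolved, and which genes passed depended on the test. Between petite and grande yeast in YPD, 0 genes passed with edgeR under other size factors, library size alone, no filter, or no bound on the fold change, and with the 4 libraries alone, while DESeq2 called 7. Leaving out 1 library in turn gave 0 to 2 genes, and the 2 (DAN1 and PDR5) passed without the petite library of the lower series. With the culture series as a replicate block 1 gene passed, with the block and the 4 libraries alone 56, and with a term of its own for these libraries, an alternative chosen after seeing the data, 4 (DAN1, PDR5, FIT3 and INH1). The culture numbers are not in the sample labels, so the block was kept as an alternative. Across genes the deviations of 2 groups from their means correlated between 0.0257 and 0.735 (28 pairs of groups), with a median of 0.455 and the highest value for petite and grande yeast in YPD without MCHM.

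For the difference between media, 31 genes became 15 with median-of-ratios size factors, 194 with DESeq2, 131 with the replicate block and 1 to 13 on leaving out 1 library (1 without either petite library, 3 without the grande library of the lower series). For the difference with MCHM, 0 became 46 with DESeq2 and 1 with the block. The 424 genes that differed between series became 4 to 32 on leaving out 1 library (4 without either grande library). Among named genes, 624 values kept their direction and side of the threshold, 53 gained a call, and 7 changed sign, all on leaving out 1 library. The range over these fits was -0.47 to 1.92 for TIR1 and -0.24 to 0.34 for FTR1 (lowest without the petite library of the higher series), -0.058 to 1.03 for TIR2 (likewise), -0.072 to 0.37 for PDR1, -3.12 to 1.04 for TPO4 and -2.10 to 0.11 for ZRT1. The cause of these changes was not tested.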

Other observations

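The series difference also touched the list of identifiers. Of the 140 genes with higher counts in the higher series, 16 were identifiers outside the R64 annotation, against 4 of the 284 with lower counts and 199 of the 5856 genes tested. In 5 identifiers both libraries of the lower series had 0 counts and both of the higher series at least 10 CPM, and in 0 identifiers the reverse held. Whether this bears on the series difference in other genes was not tested.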
